A study of Camelus dromedarius with 30 samples.

Results

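SLC17A3 is a single gene of the dromedary kidney table, ENSCDRG00005020019, and its level is described here in all 30 libraries, together with the genes whose level most closely followed or opposed it in the cortex. It is 1 of 15376 genes with enough reads to be tested. The gene was chosen because of its difference between dehydrated and control cortex, so its cortex values are given as a description with no test, and tests are kept for libraries that the choice did not use.

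Cortex and medulla of the kidney were sampled in 15 male camels (Camelus dromedarius) aged 4 to 5 years, fed alfalfa hay on a ranch in the United Arab Emirates. Control camels drank freely, dehydrated camels went without water for 20 days while food stayed available, and rehydrated camels went through the same 20 days and then drank freely for 3 days. Each of the 6 groups of tissue and condition holds 5 libraries, and by their labels cortex and medulla libraries share camels, so the tissues are not independent samples. In rehydrated camels the 2 kinds of animal label differ on which libraries belong together, and by the library names 4 of 5 medulla libraries there have a cortex partner. The tissue was a powdered piece of whole cortex or medulla taken within an hour of slaughter, so each library mixes all cell types of the piece.

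SLC17A3 encodes NPT4, a voltage-driven organic anion transporter of the apical membrane of the proximal tubule. Proximal tubule cells take up organic anions from the blood through transporters of the SLC22 family, and NPT4 lets urate and anionic drugs leave the cell into the tubular fluid. It belongs to the SLC17 family, which also holds phosphate transporter relatives in the kidney, the lysosomal sialic acid exporter and the vesicular glutamate transporters. Kidney urate handling rests on several such carriers, some of which secrete urate and some of which reabsorb it.

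In the CamDro2 assembly the gene model lies on the minus strand of chromosome 20, from 17389979 to 17410495, with 13 distinct exons that sum to 1840 bases. In the RefSeq annotation of another dromedary assembly, mCamDro1.pat, it lies between SLC17A1 and SLC17A2, with SLC17A4 beyond SLC17A1. The gene models beside SLC17A3 in CamDro2 carry no symbol in the sources used here. Read pairs were counted by strand, and how far SLC17 paralogues share reads was not analysed here.

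In the control cortex SLC17A3 stood among the more abundant genes. Its mean of 318 RPKM (CPM divided by the exon length in kilobases, where CPM is the read pair count scaled by library size and TMM factor) was exceeded by 463 of the tested genes, or 3.01%. In the dehydrated cortex, where the mean was 51.4 RPKM, 14.4% of genes were higher, and in the dehydrated medulla, with 4.73 RPKM, 59.8% were higher. The library totals behind these values ran from 12634346 to 20005136 counted read pairs, and SLC17A3 itself received between 27 and 9181 pairs, the fewest of them in a dehydrated medulla library.

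The 5 control cortex libraries held 573, 561, 507, 800 and 483 CPM of SLC17A3. The 5 dehydrated cortex libraries held 85.5, 101, 75.8, 121 and 90.0 CPM. The 5 rehydrated cortex libraries held 549, 409, 265, 389 and 331 CPM. All dehydrated libraries lay below every control and every rehydrated library, whereas the rehydrated and control libraries overlapped, with 4 of 5 rehydrated libraries below the lowest control.

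The group means were 585 CPM ± 126 (SD, n = 5) in control, 94.6 ± 17.3 (SD, n = 5) in dehydrated and 388 ± 106 (SD, n = 5) in rehydrated cortex. The dehydrated mean was thus 16.2% of the control mean and the rehydrated mean was 66.4% of it. The fitted log2 fold change was -2.63 (SE 0.51) for dehydration against control, -0.59 (SE 0.48) for rehydration against control and 2.04 (SE 0.50) for rehydration against dehydration. Groups that do not overlap, with dehydration below control, were found for 2.35% of all tested genes, and those with rehydration above dehydration for 1.54%. In dehydration against control, 25 genes had a lower fitted change than SLC17A3. These values chose the gene and are read no further.

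Within a condition the SD of SLC17A3 log2 CPM ran from 0.26 to 0.39 in the cortex, less than in the medulla.

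**Figure D1:**
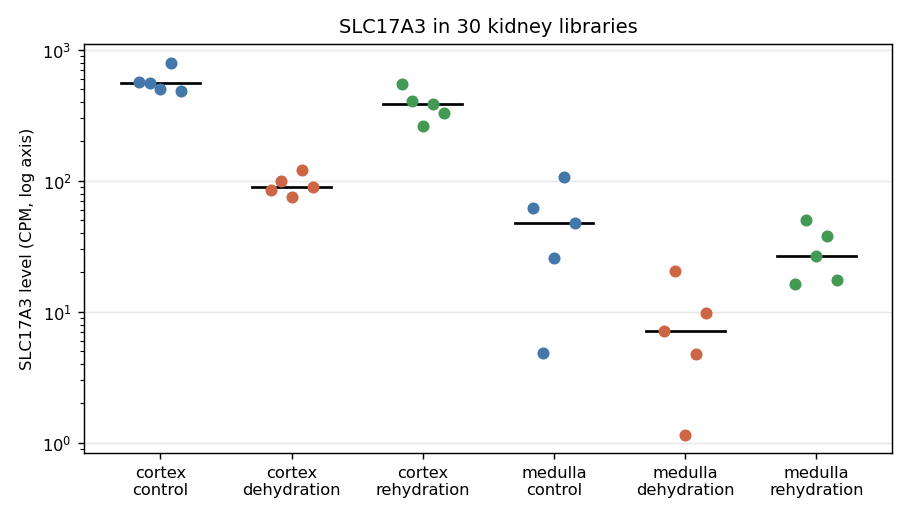
Level of SLC17A3 in each of the 30 libraries (vertical log axis, CPM) by tissue and condition (horizontal axis); points are libraries and black bars are group medians. Dehydrated cortex lies between 75.8 and 121 CPM with no overlap with the other cortex groups, and the medulla groups lie lower and overlap, with dehydrated libraries between 1.15 and 20.6 CPM.

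The medulla libraries did not enter the choice of the gene and were tested. The 5 control medulla libraries held 62.4, 4.89, 25.6, 106 and 47.6 CPM of SLC17A3. The 5 dehydrated medulla libraries held 7.17, 20.6, 1.15, 4.79 and 9.87 CPM. The 5 rehydrated medulla libraries held 16.3, 50.0, 26.6, 37.7 and 17.5 CPM. Of the dehydrated libraries, 2 lay below the lowest control, which at 4.89 CPM stood well under the other controls, and the remaining 4 controls lay above all dehydrated libraries.

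SLC17A3 fell in the dehydrated medulla, from 49.3 CPM ± 38.5 (SD, n = 5) to 8.71 ± 7.36 (SD, n = 5), or 17.7% of the control mean. The log2 fold change was -2.50 (95% interval -3.58 to -1.42, adjusted p = 0.0097, edgeR quasi-likelihood test over all 30 libraries). In this comparison 1.16% of all tested genes passed in the lower direction, and 15 genes had a lower fitted change. Without dehydration replicate 2, the library with 20.6 CPM, the change was -3.10 (adjusted p = 0.0029, edgeR). Over all fits that left out 1 library, the change ran from -3.10 to -2.01 and the adjusted p from 0.000766 to 0.0436 (edgeR). Within a condition the SD of log2 CPM ran from 0.69 to 1.70 in the medulla, more than in the cortex, and the test used a spread shared by all 6 groups. With the spread taken from the medulla libraries alone the change was -2.48 with an adjusted p of 0.11 in edgeR, from the 2 compared groups alone it was -2.49 with an adjusted p of 0.16, and limma-voom gave -2.42 with an adjusted p of 0.0735.

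After rehydration the medulla mean was 29.6 CPM ± 14.3 (SD, n = 5), 60.1% of the control mean. Against dehydration the log2 fold change was 1.76 (95% interval 0.70 to 2.83), and its adjusted p of 0.053 in edgeR missed the threshold, while DESeq2 gave 1.74 with an adjusted p of 0.022. Without dehydration replicate 2 the edgeR change was 2.37 with an adjusted p of 0.0196. Over all fits that left out 1 library, the change ran from 1.48 to 2.37 and the adjusted p from 0.0196 to 0.129 (edgeR). Of the rehydrated medulla libraries, 3 of 5 lay above every dehydrated library. Against control the log2 fold change was -0.73 (95% interval -1.75 to 0.28, adjusted p = 0.53, edgeR), and the rehydrated libraries all lay within the range of the controls. In rehydrated against dehydrated medulla 3.67% of all tested genes passed, 2.24% as higher, and in rehydrated against control medulla 0.813% passed. The comparisons within a tissue share their control and dehydrated libraries.

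Between tissues, SLC17A3 was lower in the medulla in each condition. In rehydrated camels, the tissue comparison that the choice of the gene did not use, the log2 fold change was -3.71 (95% interval -4.82 to -2.61, adjusted p = 1.8e-06, edgeR), a 13.1-fold difference with no overlap between the libraries. In that comparison 28.1% of all tested genes passed in the lower direction, and 15.6% were lower in every medulla library than in every cortex library. In control and dehydrated camels the fitted change was -3.57 (SE 0.53) and -3.44 (SE 0.55), described only. From highest to lowest, the group means ran control cortex, rehydrated cortex, dehydrated cortex, control medulla, rehydrated medulla and dehydrated medulla. Neighbours in that order overlapped in all cases except rehydrated and dehydrated cortex.

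The label of the gene as a proximal tubule transporter was set beside other genes of that segment. Of 37 proximal tubule markers, 13 could be matched to the table by symbol, all of them tested, and among them GLYAT, an enzyme that joins glycine to acids, SLC13A3, a dicarboxylate carrier, and ANPEP, a peptidase of the brush border, had the highest mean cortex CPM. GLYAT had a mean of 3277 CPM in control cortex and 545 CPM in control medulla. LRP2, CUBN and SLC34A1, which define the segment, carry no symbol in the sources used here and were not analysed. The summed CPM of the 13 markers was 9793 ± 2168 (SD, n = 5) in control cortex and 1757 ± 947 (SD, n = 5) in control medulla, while the summed thick ascending limb markers (UMOD, CLDN19 and EGF) were at 4559 CPM in control cortex and 20032 CPM in control medulla. The labelled tissues thus differed in the markers of both segments.

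The marker sum differed between medulla libraries. It ran from 497 to 2692 CPM in control, from 438 to 1882 CPM in dehydrated and from 828 to 1875 CPM in rehydrated medulla. The control medulla library with the least SLC17A3 was also the control library with the lowest sum, and the dehydrated library with 1.15 CPM had the lowest sum of all. Over the 15 medulla libraries log2 SLC17A3 followed the log2 marker sum, with Pearson's r of 0.82 (permutation p = 0.00017) and Spearman's rho of 0.75 (permutation p = 0.0019), both from 100000 resamples and two-sided. Without the 2 libraries farthest from the median sum r was 0.65, and with the condition means subtracted it was 0.89, both given without a p-value. The permutation p-values belong to all 15 libraries together, differences between conditions included. In bulk tissue, fewer cells of a type and less RNA per cell cannot be told apart.

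The sum itself moved less than SLC17A3. Between dehydrated and control medulla the mean log2 sum differed by -0.56 (two-sided exact permutation p = 0.36, n = 5 and 5, adjusted p = 0.56 over 3 comparisons). Per 1000 CPM of the markers, control medulla held 36.7, 9.85, 21.0, 39.4 and 17.8 CPM of SLC17A3, dehydrated medulla 5.02, 10.9, 2.63, 5.80 and 8.87 CPM, and rehydrated medulla 19.7, 43.4, 26.4, 20.1 and 11.6 CPM. The dehydrated libraries overlapped the controls in 1 library and did not overlap the rehydrated libraries. The log2 ratio differed by -1.90 between dehydrated and control medulla (exact permutation p = 0.016, adjusted p = 0.024 over 3 comparisons), and differed by 1.89 between rehydrated and dehydrated medulla (exact permutation p = 0.0079, the smallest that 252 arrangements allow, adjusted p = 0.024). Between rehydrated and control medulla the ratio differed by -0.0036 (exact permutation p = 1).

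With only the 6 markers named from the protein lists alone, the ratio differed by -2.11 between dehydrated and control medulla. Between rehydrated and dehydrated medulla it differed by 2.20 (exact permutation p = 0.0079 for both, adjusted p = 0.012). These 6 carry no name in the lists of genes that changed in RNA in these animals. That choice leans toward markers with little RNA change, so this ratio is not a neutral check. Both ratios were added after the values were seen. In the rehydrated camels the marker sum was 7.81-fold lower in medulla than in cortex, and SLC17A3 per marker CPM was 1.79-fold lower (exact permutation p = 0.048, n = 5 and 5), or 1.76-fold lower with the 6 markers (exact permutation p = 0.087). These permutations take the libraries as independent, which they are not. In the 5 pairs of the individual label the ratio was lower in medulla in 5 of 5 (exact sign-flip p = 0.0625, the smallest that 5 pairs allow), and in the 4 pairs of the library names in 4 of 4 (exact sign-flip p = 0.125, the smallest that 4 pairs allow), so this difference was not established.

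In the cortex the sum ran from 6751 to 12489 CPM in control, from 5342 to 7159 CPM in dehydrated and from 7771 to 11659 CPM in rehydrated libraries. SLC17A3 per 1000 CPM of the markers was 60.9 ± 11.3 (SD, n = 5) in control, 15.9 ± 1.75 (SD, n = 5) in dehydrated and 40.9 ± 12.2 (SD, n = 5) in rehydrated cortex. Between dehydrated and control cortex the log2 marker sum differed by -0.70 and the log2 ratio by -1.92. On this scale the dehydrated libraries, from 14.0 to 18.1, lay below all other cortex libraries, from 28.4 to 75.2. The ratio holds the same SLC17A3 values that chose the gene, so it is a description and adds no support.

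**Figure D2:**
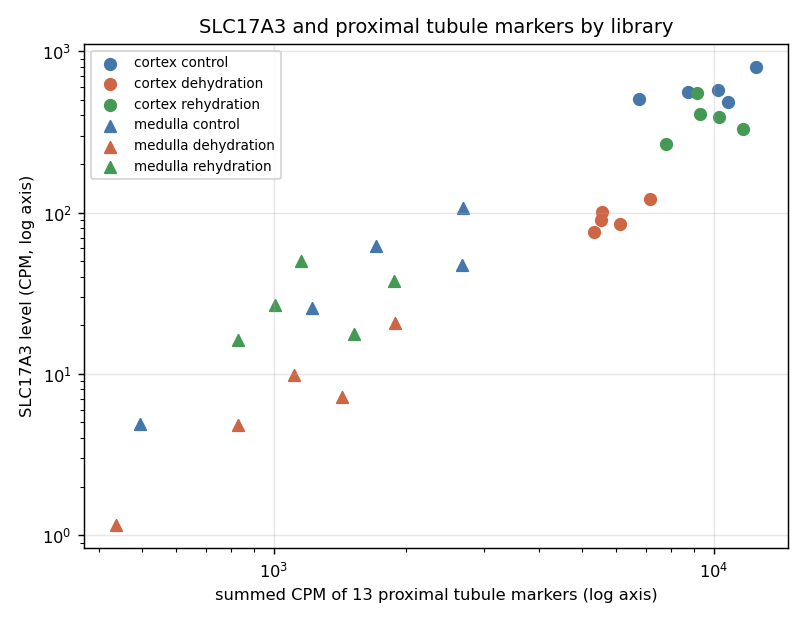
SLC17A3 (vertical log axis, CPM) against the summed CPM of 13 proximal tubule markers (horizontal log axis) in each library; circles are cortex, triangles medulla, and colours the 3 conditions. In the medulla, dehydrated libraries lie under control and rehydrated libraries of a like marker sum, with r = 0.82 over the 15 medulla libraries. In the cortex most dehydrated libraries have a lower marker sum than all control and rehydrated libraries, so a like sum is mostly lacking there.

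Of the 13 proximal tubule markers, 2 fell in the dehydrated cortex (2.45% of all tested genes passed in either direction), SLC7A7, an amino acid transporter subunit, with a log2 fold change of -1.01 (adjusted p = 0.0011, edgeR), and SLC13A1, a sulfate carrier, with -1.80 (adjusted p = 0.019, edgeR). Their fitted changes ran from -1.86 to 0.66, with 11 of 13 below 0 and a median of -1.01 beside 0.0033 over all tested genes. In the dehydrated medulla (1.68% of all genes passed), KHK, which phosphorylates fructose, and SLC13A3 fell, with log2 fold changes of -1.32 and -1.54, and the adjusted p of both in edgeR was 0.049. By limma-voom the adjusted p was 0.0963 for KHK and 0.115 for SLC13A3, and by the same test SLC13A3 had 0.0802 in rehydrated against dehydrated cortex. The median of the 13 markers in dehydrated against control medulla was -0.78 beside 0.012 over all tested genes. In the rehydrated against the dehydrated cortex (2.32% of all genes passed), MIOX, which opens the ring of myo-inositol, rose by 2.46 and SLC13A3 by 1.58 on the log2 scale (adjusted p = 0.034 for both, edgeR). None of the 13 passed by edgeR in the other 3 comparisons within a tissue, where 2 to 5 had an unadjusted p under 0.05. In the first of these, rehydrated against control cortex, 0.0845% of all genes passed. The symbols used here come mostly from lists of genes and proteins that changed in these animals. Of the 6 markers named from the protein lists alone, 0 passed in any of the 6 comparisons by edgeR. Those 6 carry no name in the lists of RNA changes, which largely fixes this count, so nothing is concluded from it.

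Within the SLC17 family only SLC17A5, the lysosomal sialic acid exporter, could be named beside SLC17A3, out of 9 members. In control cortex it had a mean level of 49.4 RPKM, against 318 RPKM for SLC17A3. Its cortex means were 139 CPM ± 23.7 (SD, n = 5) in control, 104 ± 12.9 (SD, n = 5) in dehydrated and 139 ± 51.2 (SD, n = 5) in rehydrated camels, and it did not pass in any of the 6 comparisons within a tissue. The smallest adjusted p among them was 0.26 (edgeR).

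The nearest gene model on the same strand, ENSCDRG00005019993, lies 14105 bases from SLC17A3, at chromosome 20, from 17342706 to 17375873, and carries no symbol here. Its cortex means were 155 CPM ± 30.1 (SD, n = 5) in control, 56.5 ± 18.2 (SD, n = 5) in dehydrated and 112 ± 15.6 (SD, n = 5) in rehydrated camels. It had the fifth place among all genes by correlation with SLC17A3 over the cortex libraries, with r of 0.93, and r of 0.88 over the medulla libraries. Its medulla log2 fold change with dehydration was -1.28 (adjusted p = 0.25, edgeR). The model on the other side, ENSCDRG00005020069, lies 17838 bases away, had a mean of 1.76 CPM in control cortex and correlated with SLC17A3 with r of 0.27.

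The genes most like SLC17A3 were ranked by Pearson's r of log2 CPM over the 15 cortex libraries. Of the 15375 other tested genes, 16 had r above 0.9 and 7 had r below -0.9, beside a median r of -0.034 over all of them. The 15 libraries share conditions, RNA quality and cell make-up, so r is a description. The 20 highest genes had r from 0.90 to 0.95 and rho from 0.71 to 0.96, and without the 2 libraries farthest from the median of SLC17A3, both dehydrated, their r ran from 0.84 to 0.95. With the condition means subtracted, their r ran from 0.11 to 0.76 with a median of 0.46, and only 1 of the 20 was still among the 20 highest. The 20 genes at each end were taken as a group, and the next gene beyond them had r of 0.89 at the high end and -0.85 at the low end.

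Among the 10 highest genes with a symbol were ANPEP, THRSP, DNAI3, TMEM126A, HSD11B1, NT5E, BCO2, PDK3 and SGK2. ANPEP had r of 0.93, with 1122, 357 and 781 CPM in control, dehydrated and rehydrated cortex. THRSP, a nuclear protein tied to fatty acid synthesis, had r of 0.93, with 29.7, 4.45 and 15.2 CPM.

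HSD11B1, which regenerates cortisol from cortisone, had r of 0.92, with 78.4 CPM in control, 22.7 in dehydrated and 81.3 in rehydrated cortex, where its mean was not below the control mean as that of SLC17A3 was. NT5E, the ecto-enzyme that makes adenosine from AMP, had r of 0.91, with 38.6, 8.55 and 22.3 CPM. BCO2, a carotenoid-cleaving enzyme of mitochondria, had r of 0.91 and kept the highest r of the 20 with the condition means subtracted, 0.76. PDK3, a kinase that inhibits pyruvate dehydrogenase, SGK2, a kinase of the serum and glucocorticoid regulated family, and TMEM126A, a mitochondrial membrane protein, had r between 0.91 and 0.92. DNAI3, an axonemal dynein chain, had r of 0.93 at only 4.21 CPM in control cortex.

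At the other end, the 5 lowest genes with a symbol were SLCO3A1, PLD5, SLC29A1, ACSBG1 and PECAM1. SLCO3A1, an organic anion transporting polypeptide, had r of -0.93, with 19.0 CPM ± 3.83 (SD, n = 5) in control, 43.8 ± 5.60 (SD, n = 5) in dehydrated and 24.3 ± 2.61 (SD, n = 5) in rehydrated cortex. SLC29A1, the equilibrative nucleoside transporter ENT1, had r of -0.92, with 27.9, 80.6 and 37.9 CPM. PLD5 had r of -0.93 in the cortex and kept r of -0.87 with the condition means subtracted, but over the medulla libraries its r was 0.52. PECAM1, an endothelial adhesion molecule, had r of -0.90, with 185, 310 and 180 CPM. ACSBG1, which activates very long fatty acids, had r of -0.92, with 0.161, 2.91 and 0.261 CPM. All 20 lowest genes had a fitted cortex change above 0 with dehydration, and all 20 highest a change below 0, a direction that the choice by r largely fixes.

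**Figure D3:**
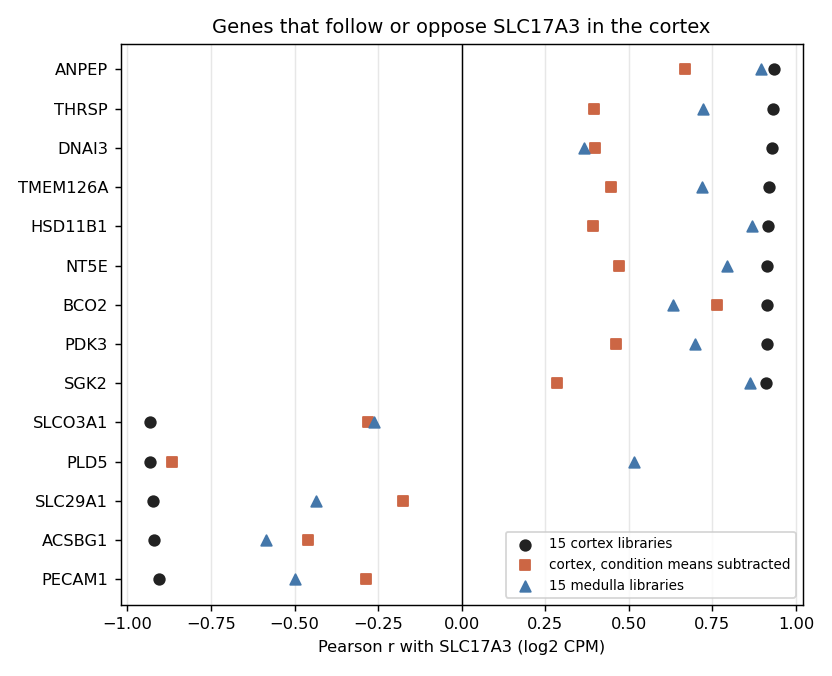
Pearson's r with SLC17A3 (horizontal axis) for genes with a symbol among the 10 highest and the 5 lowest (vertical axis), over the 15 cortex libraries, over the same libraries with condition means subtracted, and over the 15 medulla libraries. The cortex values reach from -0.93 to 0.93, most values with the condition means subtracted lie nearer to 0, and PLD5 has opposite signs in cortex and medulla.

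The same genes were then followed in the medulla, whose libraries did not enter their choice. Over the 15 medulla libraries, 19 of the 20 highest genes correlated positively with SLC17A3, with a median r of 0.76 beside -0.020 over all tested genes, and 17 of the 20 lowest correlated negatively, with a median r of -0.36. ANPEP had r of 0.89 in the medulla and HSD11B1 0.87, while DNAI3 had 0.36 and MTUS2, a microtubule-associated protein named after its value was seen, was the exception at -0.21. Of the 20 highest genes, 18 were called lower in control medulla than in control cortex, as 28.6% of all tested genes were. The control cortex libraries entered the choice of these genes, so this count is a description and adds no support. SLC17A3 and the proximal tubule marker sum moved together over the medulla libraries, as given above, and the part of that sum in these correlations was not tested.

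Of the 20 highest genes, 6 fell in the dehydrated medulla and 0 rose (1.16% of all tested genes were called lower). Among the 6 were THRSP, DNAI3, HSD11B1 and the unnamed ENSCDRG00005001870 and ENSCDRG00005007121. THRSP fell by 2.31 on the log2 scale (adjusted p = 0.018), HSD11B1 by 1.5 (adjusted p = 0.010) and DNAI3 by 0.90 (adjusted p = 0.039), all by edgeR. In the earlier form of the edgeR test the adjusted p of DNAI3 was 0.0746. ANPEP, with -1.35 (adjusted p = 0.22), and NT5E, with -1.38 (adjusted p = 0.19), did not pass. The median over the 20 was -0.96 beside 0.012 over all tested genes, and 18 of the 20 had an unadjusted p under 0.05. The share of all tested genes at that unadjusted level is not given here, for this or any other such count. The count depends on the fit: with the medulla libraries alone 1 of the 20 passed, and leaving out single libraries gave 2 to 10, with 2 without control replicate 5 or dehydration replicate 3, 3 without control replicate 3 or dehydration replicate 1 or 4, and 10 without dehydration replicate 2.

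Of the 20 lowest genes, 2 rose in the dehydrated medulla (0.527% of all tested genes were called higher). ACSBG1 went from 0.314 CPM ± 0.174 (SD, n = 5) in control to 35 ± 28.8 (SD, n = 5) in dehydrated and 4.41 ± 3.09 (SD, n = 5) in rehydrated medulla, with no overlap between control and dehydrated libraries, as for 1.75% of all tested genes in that direction. Its log2 fold change was 6.76 (SE 0.54, adjusted p = 2.5e-11, edgeR) for dehydration against control and -3.02 (adjusted p = 1e-05, edgeR) for rehydration against dehydration. CDC25B, a phosphatase of the cell cycle, rose by 0.93 (adjusted p = 0.0094, edgeR). SLCO3A1 (0.12, adjusted p = 0.81) and PLD5 (0.06, adjusted p = 0.95) did not pass. Leaving out dehydration replicate 3 left 1 of the 20 past the threshold.

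In rehydrated against dehydrated medulla 0 of the 20 highest genes passed in edgeR, with 5 of the 20 at an unadjusted p under 0.05, and leaving out dehydration replicate 2 gave 2 and dehydration replicate 4 gave 1, all higher. Of the 20 lowest genes 3 fell (1.43% of all tested genes were called lower), ACSBG1, CDC25B and the unnamed ENSCDRG00005006816, with changes of -3.02, -0.79 and -1.23. In rehydrated against control medulla 1 of the 20 highest passed as lower (0.202% of all tested genes), ENSCDRG00005007121, and 1 of the 20 lowest passed as higher (0.611% of all tested genes), ACSBG1. The first call was lost without control replicate 1, 2 or 3 or rehydration replicate 1, 2 or 3, each of which left 0, and the change of ACSBG1, 3.73 in edgeR (adjusted p = 0.0018), had an adjusted p of 0.0838 by limma-voom.

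**Figure D4:**
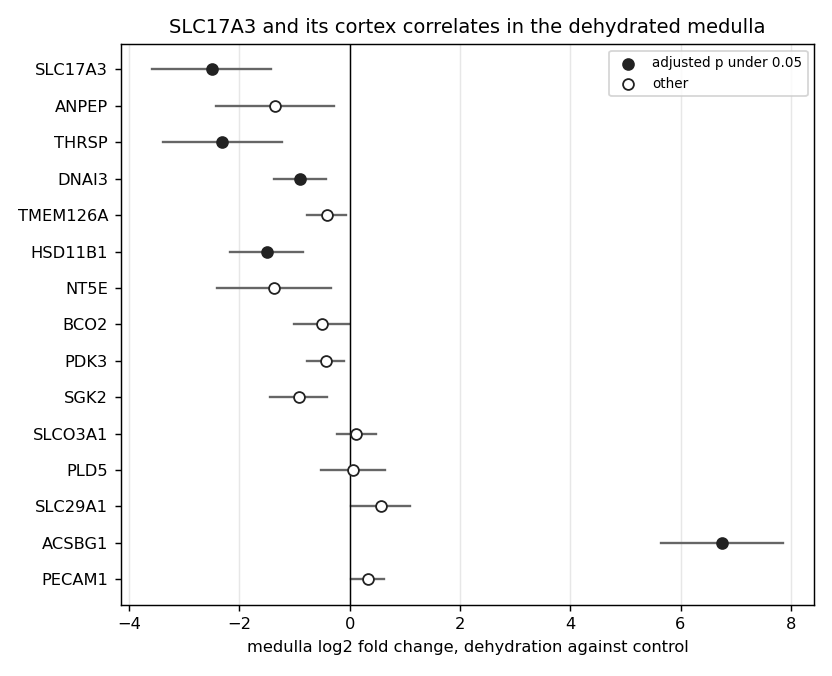
Log2 fold change in the medulla, dehydration against control (horizontal axis), for SLC17A3 and cortex correlates with a symbol among the 10 highest and the 5 lowest (vertical axis); points are fitted values, lines 95% intervals, and filled points have an adjusted p under 0.05. SLC17A3 lies at -2.50 and THRSP at -2.31, while ACSBG1 lies far to the other side at 6.76.

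The other transporters of urate and organic anions did not share 1 direction. Of 19 genes of urate and organic anion transport, 8 could be named and were tested. In the dehydrated cortex 2 rose and 0 fell, beside 2.45% of all tested genes called in either direction. Of the tested genes named in an RNA list 22.1% passed there, beside 0.492% of those without a symbol. The count over named genes thus runs high, and nothing about the family is concluded from it. SLC22A13, the urate and nicotinate exchanger OAT10 of the apical membrane, held 143 CPM ± 56.9 (SD, n = 5) in control, 739 ± 277 (SD, n = 5) in dehydrated and 185 ± 126 (SD, n = 5) in rehydrated cortex. Its log2 fold change was 2.37 (SE 0.51, adjusted p = 0.010, edgeR) with dehydration and -2.0 (adjusted p = 0.029, edgeR) from dehydration to rehydration, and its r with SLC17A3 was -0.85 over the cortex libraries. With the replicate number as a block the second change was -2.14 (adjusted p = 0.0573). Its dehydrated libraries, from 392 to 1116 CPM, all lay above the controls, from 87.2 to 223 CPM, as did those of 3.17% of all tested genes. In the medulla it had 49.1, 54.6 and 19.4 CPM in control, dehydrated and rehydrated camels, and none of the 3 comparisons passed.

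ABCG2, an efflux pump that carries urate, rose from 12.1 to 29.8 CPM in the dehydrated cortex (log2 fold change 1.3, adjusted p = 0.012, edgeR). SLC26A6, an apical anion exchanger, fell from dehydrated to rehydrated cortex (log2 fold change -0.54, adjusted p = 0.029, edgeR), and SLC13A3 rose in that comparison, as given above. The uptake transporter of the basolateral side, SLC22A8 or OAT3, had 1079, 353 and 798 CPM in control, dehydrated and rehydrated cortex, an order like that of SLC17A3 with r of 0.85, but its change of -1.61 with dehydration had an adjusted p of 0.16 (edgeR). SLC22A11, the apical carrier OAT4, had 610, 793 and 913 CPM and did not pass.

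ABCC2, an apical efflux pump for conjugates, and SLCO4C1, a basolateral carrier, did not pass in any comparison within a tissue, with cortex dehydration changes of -0.84 (adjusted p = 0.51, edgeR) and 1.49 (adjusted p = 0.12, edgeR). In the dehydrated medulla 1 of the 8 fell, SLC13A3, and in the other medulla comparisons 0 of 8 passed in edgeR, with 2 and 3 of them at an unadjusted p under 0.05. The median of the 8 was 0.41 in dehydrated cortex and -0.27 in dehydrated medulla, where SLC17A3 had -2.50. The cortex value of SLC17A3 chose the gene, so it is not compared with the median of the 8.

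**Figure D5:**
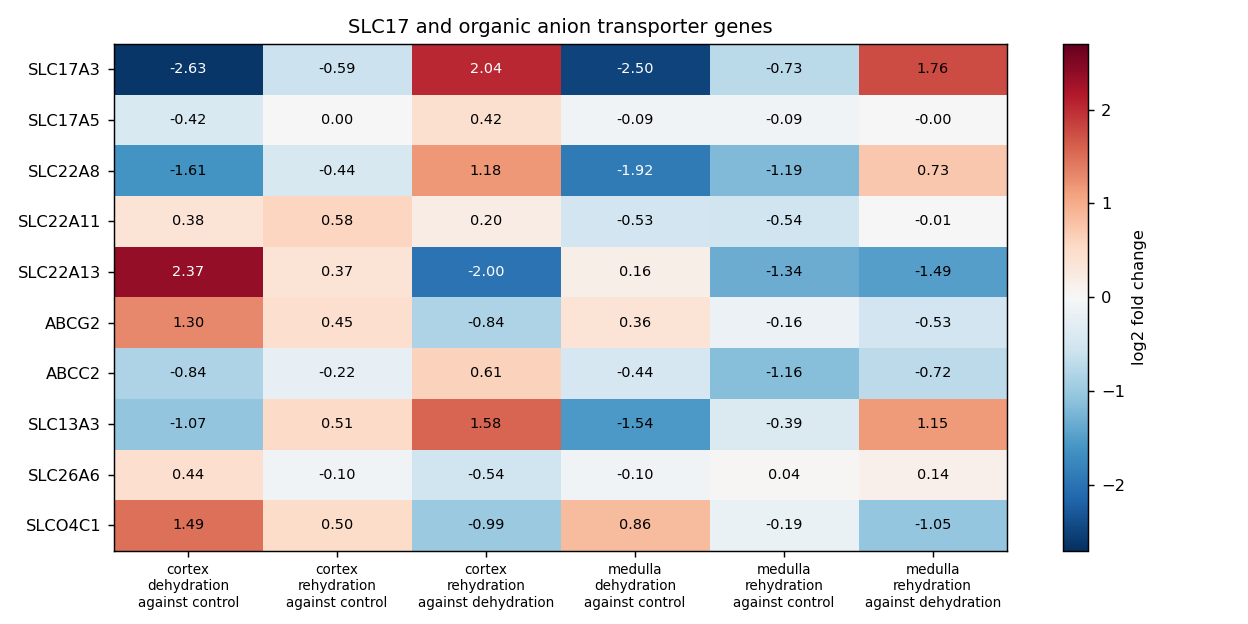
Fitted log2 fold changes of SLC17A3, SLC17A5 and 8 transporters of urate and organic anions (rows) in the 6 comparisons within a tissue (columns); red is higher and blue lower in the first-named condition. SLC17A3 has the lowest value of the panel in the dehydrated medulla, -2.50, and SLC22A13 the highest in the dehydrated cortex, 2.37. The dehydrated cortex value of SLC17A3, -2.63, chose the gene and is shown as a description.

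Of 10 genes of purine breakdown, 4 were named and tested. In the dehydrated cortex AMPD2, an AMP deaminase, rose with a log2 fold change of 1.15 (adjusted p = 0.0021, edgeR). NT5E, described above among the genes chosen by their likeness to SLC17A3 in these cortex libraries, had a fitted change of -2.18. AMPD2 fell again from dehydrated to rehydrated cortex (log2 fold change -1.0, adjusted p = 0.0076, edgeR). ADA and HPRT1 did not pass, and none of the 4 passed in the medulla by edgeR, where 3 had an unadjusted p under 0.05 in dehydration against control. Of 12 tubule injury genes, 3 were named (VCAM1, CLU and VIM), and 0 of them passed in any of the 6 comparisons by edgeR, with 2 at an unadjusted p under 0.05 in the dehydrated and 1 in the rehydrated medulla, each against control.

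Markers of other cell types were set beside these values. In the dehydrated cortex the endothelial marker sum (PECAM1, CDH5 and VWF) ran from 356 to 423 CPM, above all control libraries, at 219 to 269 CPM. PECAM1, chosen above among the 20 lowest genes by r in these same cortex libraries, gives most of this sum. That choice largely fixes the separation, which as single genes 3.17% of all tested genes also had. CDH5 and VWF did not pass (log2 fold changes 0.39 and 0.30, adjusted p = 0.39 and 0.61, edgeR). The thick ascending limb sum was at 6789 CPM ± 1509 (SD, n = 5) in dehydrated and 4559 ± 744 (SD, n = 5) in control cortex, and 0 of its 3 genes passed by edgeR, with 1 at an unadjusted p under 0.05. Among single markers AQP3, a water channel of principal cells, rose in the dehydrated cortex by 2.36 on the log2 scale (adjusted p = 0.017, edgeR; by limma-voom adjusted p = 0.0702) and fell from there to rehydration with a change of -2.38 (adjusted p = 0.017, edgeR). The 3 principal cell markers did not share a direction there: AQP2 had a change of 0.22 and SCNN1A of -0.59, neither past the threshold, and their sum was 716 CPM ± 99.4 (SD, n = 5) in control and 609 ± 55.5 (SD, n = 5) in dehydrated cortex. PVALB, a calcium-binding protein of the distal convoluted tubule, is among the 20 lowest genes by r and had 0.967, 4.55 and 1.79 CPM in control, dehydrated and rehydrated cortex. CALB1, the other marker named for the distal convoluted and connecting tubule, went the other way, with 1585, 609 and 1343 CPM, and did not pass (log2 fold change -1.38, adjusted p = 0.19, edgeR). The sum of both was 1586 CPM ± 654 (SD, n = 5) in control and 614 ± 141 (SD, n = 5) in dehydrated cortex. AQP2 and CALB1 are named here after their values were seen. In the dehydrated medulla SCNN1A, a sodium channel subunit, and ATP6V1B1, a proton pump subunit of intercalated cells, fell by 0.89 (adjusted p = 0.023, edgeR) and 0.82 (adjusted p = 0.0043, edgeR) on the log2 scale. The other principal cell markers, AQP2 and AQP3, had changes of 0.81 and 1.37 there (adjusted p = 0.056 and 0.17, edgeR), and the sum of the 3 was 814 CPM ± 248 (SD, n = 5) in control and 923 ± 309 (SD, n = 5) in dehydrated medulla. ATP6V1B1 rose with rehydration of the medulla (1.07, adjusted p = 0.00020, edgeR), as did COL1A1, a collagen chain of stroma (1.20, adjusted p = 0.042, edgeR; by limma-voom 0.99, adjusted p = 0.0829). COL1A1 was the only 1 of 4 stroma markers that passed there, with 3 changes above 0 and 1 below, beside 3.67% of all tested genes. The stroma sum was 341 CPM ± 96.7 (SD, n = 5) in dehydrated and 494 ± 176 (SD, n = 5) in rehydrated medulla. With the replicate number as a block the adjusted p of SCNN1A was 0.0625. The only podocyte marker named, SYNPO, was at 2.09 CPM in control cortex and 9.22 CPM in control medulla, and no leukocyte marker could be named. The part of these cell types in the SLC17A3 values was not tested.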

How the data were processed

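Poly-A selected RNA from 30 kidney samples was sequenced in read pairs. The values are counts: per the file headers, the authors assigned read pairs to CamDro2 genes (Ensembl release 100) with featureCounts 1.6.2, reverse stranded, after trimming with BBDuk. The methods name STAR as the aligner and the table carries traces of Rsubread, and which was used could not be settled. The authors' own comparisons used DESeq2 1.31.18 and are not used here.

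The deposited counts were analysed in R 4.3.3. Genes were kept by filterByExpr (minimum count 10, minimum total 15), which left 15376 of 22444. edgeR 4.0.16 quasi-likelihood tests with TMM factors were fitted over all 30 libraries in 6 groups, two-sided, with Benjamini-Hochberg adjustment over all tested genes and a threshold of 0.05. CPM were TMM-scaled, and log2 CPM used a prior count of 2. Alternatives used DESeq2 1.42.0, limma 3.58.1, other scaling, filters, covariates, blocks and left-out libraries. Scripts were tested on simulated data. Library totals ran from 12634346 to 20005136, and the biological coefficient of variation was 34.0%.

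Symbols came from the article's supplementary gene and protein lists, which paired 3827 IDs. Of the tested genes named in an RNA list 22.1% passed in dehydrated against control cortex, beside 0.701% of those named in a protein list alone, so counts over named genes run high. Named were SLC17A3, its measured family, the 10 highest and 5 lowest cortex correlates with a symbol, all measured anion transporters, the 3 proximal tubule markers of highest cortex CPM, and members of other lists that passed. Some genes that this rule names are not reported here. The gene, the lists and the rules were chosen with earlier results of these data known. No sequence is shown, since no file used here holds one.

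Each library is a separate sample of 1 camel. In rehydrated camels 2 kinds of label differ on which cortex and medulla libraries share an animal. The names of 5 cortex and 12 medulla libraries end in N, whose meaning is not given in the sources used here.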

Additional observations from a re-analysis of the deposited data

How the results depend on the processing

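The medulla values are limited by the spread between libraries, with SDs of log2 CPM from 0.69 to 1.70, and the lowest library held 27 read pairs of SLC17A3. The fall of SLC17A3 in the dehydrated medulla kept its direction in every alternative and missed the threshold in 3: limma-voom (-2.42, adjusted p = 0.0735), only the 2 compared groups (-2.49, adjusted p = 0.162) and only the medulla libraries (-2.48, adjusted p = 0.114). Rehydrated against dehydrated medulla passed with DESeq2 (1.74, adjusted p = 0.0223), by the exact permutation test of log2 CPM (2.12, unadjusted p = 0.0238) and per proximal tubule marker CPM (1.89, adjusted p = 0.0238, or 2.20, adjusted p = 0.0119, with the markers named from protein lists). With those markers rehydrated against control medulla changed sign (0.0927, exact permutation adjusted p = 0.865), and medulla against cortex in rehydration missed the threshold (-0.817, exact permutation p = 0.0873). The cause was not tested. The marker ratios, the earlier form of the edgeR fit, the libraries without N and the medulla-only counts were chosen after seeing the data. Without the cortex libraries whose names end in N the cortex changes were -2.78, -0.77 and 2.01. Most of the cortex libraries left out here are rehydrated, so the changes that involve rehydration rest on few rehydrated libraries.

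Leaving out 1 library at a time gave, for SLC17A3, -2.73 to -2.49 in dehydrated against control cortex, -0.75 to -0.45 in rehydrated against control cortex and 1.88 to 2.15 in rehydrated against dehydrated cortex. In the medulla the ranges were -3.10 to -2.01 (adjusted p from 0.000766 to 0.0436, edgeR), -1.03 to -0.25 and 1.48 to 2.37 (adjusted p from 0.0196 to 0.129, edgeR), and between tissues in rehydration -3.99 to -3.55. Of the 20 highest correlates 2 to 10 were then lower in dehydrated medulla, 0 to 1 lower in rehydrated against control medulla and 0 to 2 higher in rehydrated against dehydrated medulla. Of the 20 lowest, 1 to 3 were higher in dehydrated medulla and 2 to 4 lower from dehydration to rehydration. The list of 20 highest shared 14 to 18 genes with the reported list and that of 20 lowest 13 to 19.

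Of the 20 highest correlates, the number lower in dehydrated medulla was 6 as reported, 3 in the earlier edgeR form, 3 with the replicate block and 1 with the medulla libraries alone, and the number lower in rehydrated against control medulla was 0 in these 3. Of the 20 lowest, the number higher in dehydrated medulla was 4 with DESeq2 and 1 with the medulla libraries alone, and higher in rehydrated against control medulla 0 with limma-voom and 0 with the medulla libraries alone. Spearman's rho shared 10 and 6 of the 20 genes at the high and low ends, and subtracting condition means 1 and 1. Of the listed genes, DESeq2 called 1 in rehydrated against control cortex, 14 in rehydrated against dehydrated cortex and 1 in rehydrated against control medulla, where edgeR called 0, 9 and 0, and the earlier edgeR form called 2 and 1 in dehydrated and in rehydrated against dehydrated medulla, where 4 and 2 were reported. Of 232 values for 29 calls on named genes, 204 stayed past the threshold, 28 did not and 0 changed sign. Over all genes the calls ranged from 231 to 706 around 376 in dehydrated and 0 to 124 around 13 in rehydrated against control cortex, and from 208 to 718 around 356 in rehydrated against dehydrated cortex. In the medulla the same ranges were 89 to 394 around 259, 0 to 291 around 125 and 62 to 860 around 565.

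Replicate numbers do not pair the conditions: same-numbered libraries within a tissue correlated in their deviations from -0.39 to 0.47, and at most 2 of 5 correlated best with their own number. With the number as a replicate block SLC17A3 changed by -2.64 (adjusted p = 0.0310), -0.75 (adjusted p = 0.578) and 1.89 (adjusted p = 0.0705) in the 3 medulla comparisons in edgeR. Between tissues in rehydration the change was -3.79 (adjusted p = 1.18e-05, edgeR) with the individual label as a block and -3.67 (adjusted p = 5.97e-05, edgeR) with the number in the library name. Per proximal tubule marker CPM the paired difference was -0.840 (exact sign-flip p = 0.0625) by the individual label and -0.918 (exact sign-flip p = 0.125) by the library name, each the smallest p that the number of pairs allows, so neither could pass. These paired ratios were chosen after seeing the data.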

Other observations

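The rehydrated camels carry 2 kinds of label for the animal, and they differ on which cortex and medulla libraries belong together. The deviations of the cortex and medulla libraries from their group means correlated between -0.42 and 0.41, with a mean of 0.049, over the 5 pairs that the individual label makes, and 0 of 5 libraries correlated best with their own partner. Over the 4 pairs that share a number in the library name the correlations ran from -0.028 to 0.54, with a mean of 0.35, and 3 libraries correlated best with their own partner. The mean over the pairs of the individual label was 0.14 in control and 0.093 in dehydrated camels, with 3 of 5 best matches in each. No test was made of which label is right.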
